A study of Mus musculus with 9 samples.

Results

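Genes of homologous recombination and the DNA damage response were examined in 9 single mouse oocytes. The set was a list of 41 symbols, and a member was taken into the results when a row of the array carried its symbol alone, with the row of the highest mean over the 9 arrays used for a gene with several. By this rule 39 of the 41 genes were found among 19938 genes in all, and Trp53 and Xrcc2 were not analysed here. The oocytes were at metaphase II and came from unmated 2-month-old ICR females (an outbred strain) primed with 10 IU of PMSG and, after 46 hours, 10 IU of hCG, gonadotropins that bring follicles to growth and ovulation. Each oocyte was put on 1 Affymetrix Mouse Gene 1.0 ST array, and the groups differed in how the RNA was prepared. RNA was purified with the Qiagen RNeasyMini kit (3 oocytes) or the Arcturus PicoPure kit (3 oocytes), or the oocyte was opened by NuGEN direct lysis and its crude lysate was used without purification (3 oocytes). All samples were amplified with the same NuGEN One-Direct chemistry. Between 1 and 3 cells came from each of 3 mice per condition, and no label links an oocyte to its mouse, so p-values measure only the spread between these oocytes. The comparisons ask what the preparation changes in the transcriptome read from 1 cell. Purified samples and lysates also differ in the buffer that opened the cell, so buffer and purification cannot be told apart.

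A double-strand break is recognised by the MRE11-RAD50-NBN complex, which brings in the kinase ATM, while stretches of single-stranded DNA coated by RPA bring in ATR through ATRIP and TOPBP1. The kinases pass the signal to CHEK2 and CHEK1 and to the p53 family. Homologous recombination then cuts back the ends and, with the help of BRCA1, PALB2 and BRCA2, copies the sister or homologous DNA. The Fanconi anaemia proteins act where both strands are cross-linked. Oocytes use these proteins in meiotic recombination before birth and in the surveillance of DNA damage during their long arrest, and the mature oocyte carries maternal messages that serve the first divisions of the embryo, when transcription is still largely silent.

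The deposited values are on a log2 scale, on which a difference of 1 is a change of 2-fold. Rows differ in their probes, so no row's level is set against another row's, and each was read against a background level. That level was set on each array at the 95th percentile of 1231 olfactory, vomeronasal and taste receptor genes, and lay between 7.19 and 7.48. Their 99th percentile, a stricter limit, averaged 8.20. Both are working limits and not detection p-values. Of 15 oocyte markers 14 lay above background on all arrays, the exception being Figla on 8. Of 18 cumulus and granulosa markers, 10 lay above it on no array (among them Has2, Fshr, Amh and Inha), 4 on all and 4 on some. RNeasyMini replicate 3 stood apart: it was the highest array for 12 of the 18, against 18.5% of all genes. On it the inhibin subunit Inhba had 8.48 (6.78 to 7.21 elsewhere), and the cumulus expansion genes Tnfaip6 and Ptgs2 had 8.39 (6.34 to 7.03) and 7.56 (6.24 to 6.94), above background on this array alone. The remaining marker above background on some arrays was Ptx3, on 2. The log2 of the markers' summed level was 11.65 on RNeasyMini replicate 3, 11.22 and 11.29 on the other RNeasyMini arrays, 11.16 to 11.27 with PicoPure and 11.23 to 11.39 in crude lysate, and its part in the results was not tested. Of 7 blood markers 1 lay above background on all arrays, the T cell gene Cd3e at a mean of 7.53. The granulosa genes Foxl2 and Nr5a1 and the collagen gene Col1a2 averaged 7.89, 7.73 and 8.17. Rows between both limits are therefore given here as near background.

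Most of the DNA damage response genes lay above background. Of the 39 genes, 31 did so on all 9 arrays (79.5%, against 43.1% of all genes), 7 on some and Chek2 on none (35.1% of all genes lay above it on none). Without RNeasyMini replicate 3, 33 of 39 lay above background on all remaining arrays. Leaving out an array can only keep or raise such a count for any genes, and this array had the highest background (7.48). With the 99th percentile as the limit, 22 lay above it on all arrays (56.4%, against 23.6% of all genes). The number above background per array was 34 or 35 with RNeasyMini, 36 or 37 with PicoPure and 36 to 38 in crude lysate. Over all genes it was 9661 to 10751 with RNeasyMini, 11000 to 11106 with PicoPure and 10660 to 11443 in crude lysate.

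**Figure D1:**
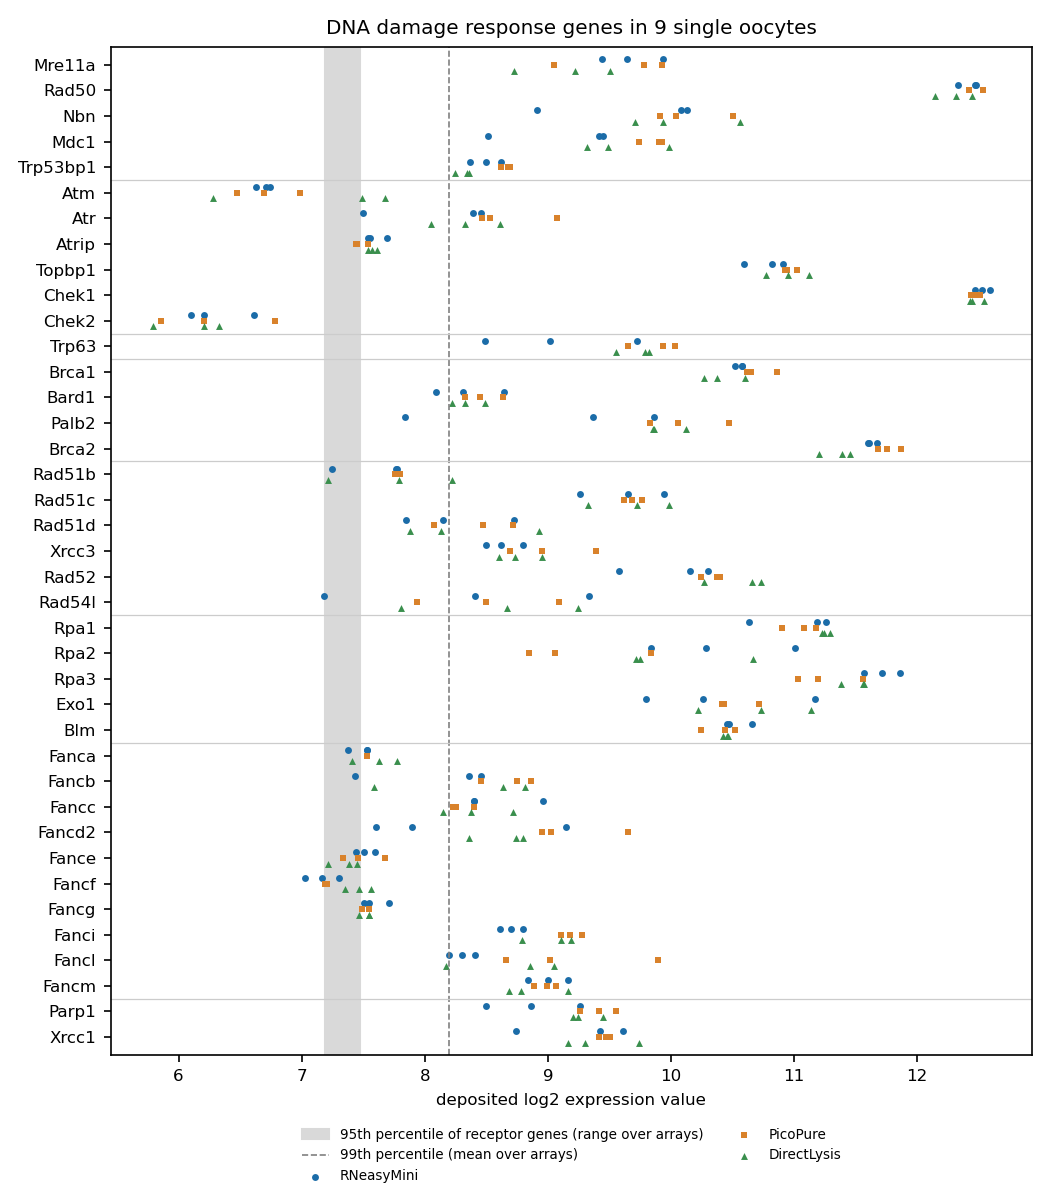
Deposited log2 values (x axis) of the 39 genes (y axis, grouped by role) in each of the 9 oocytes, coloured by preparation, with the range of the 95th percentile of receptor genes in grey and their mean 99th percentile dashed. Chek2 lies left of the grey band on every array, Atm on most, and Fanca, Fance, Fancf, Fancg and Atrip lie in or near it.

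Break sensors were all above background. Rad50, the coiled-coil ATPase of the sensor complex, ran from 12.14 to 12.54 over the 9 arrays. Mre11a, its nuclease, had 9.44, 9.64 and 9.94 with RNeasyMini, 9.78, 9.05 and 9.93 with PicoPure and 9.22, 8.72 and 9.51 in crude lysate. Lysate replicate 2 was the lowest, and the groups overlapped. Nbn, the subunit that recruits ATM, ran from 8.91 to 10.56 in the row used, and a second row of the gene held only 7.55 to 7.75. Mdc1, the adaptor that binds phosphorylated histone H2AX, had 8.51, 9.45 and 9.42 with RNeasyMini, 9.92, 9.90 and 9.74 with PicoPure and 9.31, 9.99 and 9.49 in crude lysate. Its value in RNeasyMini replicate 1 was the lowest of the 9. Trp53bp1, which directs breaks towards end joining, had 8.37, 8.62 and 8.49 with RNeasyMini, 8.68, 8.62 and 8.69 with PicoPure and 8.36, 8.34 and 8.25 in crude lysate. All 3 lysates lay below all 6 purified samples, although the highest lysate (8.36) and the lowest purified sample (8.37) nearly met.

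The checkpoint kinases lay on both sides of background. Chek1, the effector kinase downstream of ATR, had 12.59, 12.53 and 12.47 with RNeasyMini, 12.47, 12.44 and 12.51 with PicoPure and 12.55, 12.43 and 12.44 in crude lysate. Its 9 values lay within 0.17 log2 units of each other, and its pooled within-preparation SD was 0.06. Chek2, the effector kinase downstream of ATM and the kinase that activates p63 in damaged oocytes, had 6.10, 6.20 and 6.61 with RNeasyMini, 6.20, 6.78 and 5.86 with PicoPure and 5.79, 6.20 and 6.32 in crude lysate. None of these values reached background, and 3 of them were identical to 6 decimals. Atm itself had 6.71, 6.74 and 6.63 with RNeasyMini, 6.47, 6.98 and 6.70 with PicoPure and 7.49, 6.28 and 7.68 in crude lysate. Only lysate replicates 1 and 3 exceeded background, while replicate 2 was the lowest of all 9 arrays. Atr, the kinase of replication stress, had 8.39, 8.46 and 7.50 with RNeasyMini, 9.07, 8.47 and 8.53 with PicoPure and 8.05, 8.33 and 8.61 in crude lysate. RNeasyMini replicate 3 stood lowest, and all 9 arrays were above background. Topbp1, the activator of ATR, ran from 10.59 to 11.12, and Atrip, the partner of ATR, from 7.44 to 7.70, above background on all arrays but above the 99th percentile on none.

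The promoters of the effector kinases are shown, from 250 bases before to 50 after the start of the gene (RefSeq, GRCm38.p6). That of Brca2, the member with the smallest p between lysate and purified RNA, is added. The part of these sequences in the levels was not tested. Capitals mark matches on either strand to an E2F site (TTTGGCGC, TTTCCCGC, TTTCGCGC or TTTGCCGC) or to a CCAAT box (CCAAT), and to the same E2F words ending in G (TTTGGCGG, TTTCCCGG, TTTCGCGG or TTTGCCGG), which were added after the sequences were seen.
Chek1, chr9:36726609-36726908, minus strand: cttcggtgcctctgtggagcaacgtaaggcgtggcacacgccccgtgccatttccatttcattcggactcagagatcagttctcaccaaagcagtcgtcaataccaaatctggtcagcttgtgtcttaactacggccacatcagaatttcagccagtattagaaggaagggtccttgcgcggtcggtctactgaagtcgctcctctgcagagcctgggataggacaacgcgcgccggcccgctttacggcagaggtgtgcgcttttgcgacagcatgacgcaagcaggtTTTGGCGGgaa
Chek2, chr5:110839733-110840032, plus strand: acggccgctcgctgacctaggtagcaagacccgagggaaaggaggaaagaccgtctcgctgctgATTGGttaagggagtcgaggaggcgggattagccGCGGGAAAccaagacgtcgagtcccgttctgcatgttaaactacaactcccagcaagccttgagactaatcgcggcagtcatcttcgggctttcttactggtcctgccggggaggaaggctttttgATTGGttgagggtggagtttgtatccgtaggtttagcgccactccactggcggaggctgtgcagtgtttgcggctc
Brca2, chr5:150522371-150522670, plus strand: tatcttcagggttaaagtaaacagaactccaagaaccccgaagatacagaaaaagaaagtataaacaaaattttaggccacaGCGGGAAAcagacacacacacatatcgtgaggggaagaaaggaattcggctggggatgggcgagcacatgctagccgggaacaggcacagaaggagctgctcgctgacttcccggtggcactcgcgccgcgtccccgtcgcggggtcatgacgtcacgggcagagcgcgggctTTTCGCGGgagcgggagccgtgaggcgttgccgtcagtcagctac
The Chek2 window holds an E2F match and CCAAT matches. The Brca2 window holds an E2F match of each kind, and the Chek1 window holds no match to the words first searched and one to the added words.

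Trp63 encodes the p53 relative that guards the oocyte pool against DNA damage during the resting stage. It had 9.72, 9.01 and 8.49 with RNeasyMini, 9.93, 10.04 and 9.65 with PicoPure and 9.79, 9.82 and 9.55 in crude lysate. All 9 values were above the 99th percentile of the receptors, and RNeasyMini replicates 2 and 3 lay below every other array. Trp63 has isoforms with different functions, which 1 row cannot tell apart.

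All 4 BRCA genes were above background on every array. Brca2, which acts on the resected DNA, had 11.60, 11.67 and 11.61 with RNeasyMini, 11.69, 11.87 and 11.76 with PicoPure and 11.45, 11.21 and 11.39 in crude lysate. The 3 lysates were below all purified samples, and all PicoPure samples were above all RNeasyMini samples. Brca1, the ubiquitin ligase that opens the pathway, had 10.57, 10.57 and 10.52 with RNeasyMini, 10.65, 10.87 and 10.61 with PicoPure and 10.27, 10.37 and 10.60 in crude lysate. Lysate replicates 1 and 2 were the lowest, while replicate 3 lay among the purified samples. Palb2, the link between both, had 9.86, 9.36 and 7.84 with RNeasyMini, 10.47, 10.06 and 9.83 with PicoPure and 10.12, 9.85 and 9.86 in crude lysate. RNeasyMini replicate 3 stood far below the other 8 arrays. Bard1, the partner of BRCA1, ran from 8.09 to 8.65 in the row used. A second row ran from 7.34 to 8.66, and the remaining row exceeded background on only 3 arrays, with 9.46 in lysate replicate 1 and 7.03 to 7.85 elsewhere.

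Among the strand-exchange genes, 4 of 6 were above background on all arrays. Rad51c, needed for repair by homologous recombination, had 9.65, 9.94 and 9.26 with RNeasyMini, 9.62, 9.68 and 9.76 with PicoPure and 9.99, 9.73 and 9.33 in crude lysate. Rad52, an annealing factor, had 10.30, 10.16 and 9.58 with RNeasyMini, 10.24, 10.38 and 10.40 with PicoPure and 10.27, 10.66 and 10.73 in crude lysate. Its lowest value was again RNeasyMini replicate 3, and 2 of the 3 lysates were the highest. Rad54l, a motor protein that helps strand invasion, had 8.41, 9.33 and 7.18 with RNeasyMini, 9.09, 8.50 and 7.94 with PicoPure and 9.24, 8.67 and 7.81 in crude lysate. It spread widely in every preparation, and RNeasyMini replicate 3 fell short of background. Xrcc3 ran from 8.50 to 9.39 and Rad51d from 7.85 to 8.93, both also needed for homologous recombination. Rad51b ran from 7.22 to 8.22 and exceeded background on 7 arrays.

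The single-strand binding and resection genes were all above the 99th percentile on all arrays. Rpa1, the large subunit of replication protein A, had 11.26, 11.19 and 10.64 with RNeasyMini, 11.18, 10.90 and 11.08 with PicoPure and 11.29, 11.24 and 11.23 in crude lysate. Rpa2, the middle subunit, had 10.29, 9.84 and 11.01 with RNeasyMini, 9.84, 8.85 and 9.06 with PicoPure and 10.67, 9.71 and 9.74 in crude lysate. PicoPure replicates 2 and 3 were the lowest and RNeasyMini replicate 3 the highest. Rpa3, the small subunit, had 11.72, 11.86 and 11.57 with RNeasyMini, 11.56, 11.03 and 11.19 with PicoPure and 11.56, 11.38 and 11.57 in crude lysate. All PicoPure values were below all RNeasyMini values, and in a second row the means were 9.85 with RNeasyMini, 9.60 with PicoPure and 9.73 in crude lysate. Exo1, the nuclease of long-range resection, ran from 9.80 to 11.17, and Blm, the helicase that undoes recombination intermediates, from 10.25 to 10.66.

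The Fanconi anaemia genes were divided. Of 10, 6 lay above background on all arrays, namely Fancc, Fancd2, Fancg, Fanci, Fancl and Fancm. Fancd2 encodes 1 of the 2 proteins that are ubiquitinated at a cross-link, and had 7.61, 9.14 and 7.89 with RNeasyMini, 9.03, 8.95 and 9.65 with PicoPure and 8.36, 8.75 and 8.80 in crude lysate. RNeasyMini replicates 1 and 3 were the lowest, and replicate 2 was among the highest. Its partner Fanci had 8.80, 8.70 and 8.61 with RNeasyMini, 9.18, 9.28 and 9.10 with PicoPure and 8.79, 9.10 and 9.19 in crude lysate. Every PicoPure value exceeded every RNeasyMini value. Fancl, the ligase that ubiquitinates them, had 8.20, 8.31 and 8.41 with RNeasyMini, 8.66, 9.02 and 9.89 with PicoPure and 8.85, 9.05 and 8.17 in crude lysate. Here PicoPure replicate 3 stood apart on the high side. Fancm, the helicase that finds the lesion, ran from 8.69 to 9.16, Fancc of the core complex from 8.14 to 8.96 and Fancb, also of that complex, from 7.43 to 8.86. Fancb exceeded background on 8 arrays and fell short of it on RNeasyMini replicate 3.

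The core complex genes Fanca, Fance, Fancf and Fancg lay close to background. Fanca had 7.38, 7.53 and 7.53 with RNeasyMini, 7.53, 7.53 and 7.53 with PicoPure and 7.77, 7.41 and 7.63 in crude lysate. Its value was identical to 6 decimals on 5 arrays, and so was that of Fancg, which ran from 7.46 to 7.71. Such recurring values, which have no order, were found on 3 or more arrays for 4 of the 39 genes (10.3%, against 30.2% of all genes), the others being Chek2 and Fancc. Fance had 7.51, 7.44 and 7.59 with RNeasyMini, 7.34, 7.46 and 7.68 with PicoPure and 7.22, 7.38 and 7.45 in crude lysate. Fancf had 7.30, 7.16 and 7.03 with RNeasyMini, 7.20, 7.20 and 7.19 with PicoPure and 7.35, 7.46 and 7.56 in crude lysate. It exceeded background in all 3 lysates and in PicoPure replicate 1 only. Of the single-strand break genes, Parp1, the sensor that makes poly(ADP-ribose), had 8.50, 9.26 and 8.87 with RNeasyMini, 9.26, 9.42 and 9.55 with PicoPure and 9.21, 9.45 and 9.24 in crude lysate. RNeasyMini replicates 1 and 3 were the lowest. Xrcc1, the scaffold it recruits, ran from 8.74 to 9.74.

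Of the DNA damage response genes, those with the smallest p between lysates and purified samples were Brca2, Trp53bp1, Fancf and Brca1, and none passed the threshold. The count was 0 of 39 at a Benjamini-Hochberg adjusted p under 0.05 (limma, over all genes), against 201 of 19938 genes, or 1.01%. It was also 0 with a variance trend and robust moderation. At an unadjusted p under 0.05 there were 4 of 39, or 10.3%, against 14.2% of all genes. Brca2 differed by -0.35 ± 0.07 (SE), from 11.70 ± 0.10 (SD, n = 6) after purification to 11.35 ± 0.13 (SD, n = 3) in the lysates, with an adjusted p of 0.0878 (limma). Its 95% interval was -0.52 to -0.18. Trp53bp1 differed by -0.26 ± 0.07 (SE), with an adjusted p of 0.151 (limma), and Brca1 by -0.22 ± 0.09 (SE), with 0.325. With a further quantile normalization the difference of Brca1 was -0.09. Fancf, near background, differed by 0.28 ± 0.08 (SE) with an adjusted p of 0.172 (limma), and by 0.15 with values raised to background. Next by p were Rad52 at 0.38 ± 0.17 (SE) and Mre11a at -0.48 ± 0.24 (SE), whose intervals of -0.02 to 0.77 and -1.04 to 0.08 include 0.

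The 95% interval lay within 1 log2 unit on either side of 0 for 34 of 39 genes (87.2%, against 89.2% of all genes). Chek1 differed by -0.03 ± 0.06 (SE), with an interval of -0.16 to 0.10. All lysates lay above all purified samples for Fancf alone (4.31% of all genes), and below them for Brca2 and Trp53bp1 (3.72% of all genes). Of the differences 20 were positive and 19 negative, with a median of 0.01, against 0.0022 over all genes. This balance depended on the scaling, since with a further quantile normalization 31 of 39 were positive (79.5%, against 53.6% of all genes). Without RNeasyMini replicate 3, 16 of 39 were positive (41.0%, against 52.2%). The most negative was -0.48 (Mre11a), which was -0.26 without DirectLysis replicate 2, and the most positive 0.45 (Atm). The value for Atm rests on 2 of 3 lysates. Without DirectLysis replicate 2 the difference was 0.88 with an adjusted p of 0.0498 (limma), and without replicate 1 or 3 it was 0.28 or 0.18. With values raised to background it was 0.18.

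**Figure D2:**
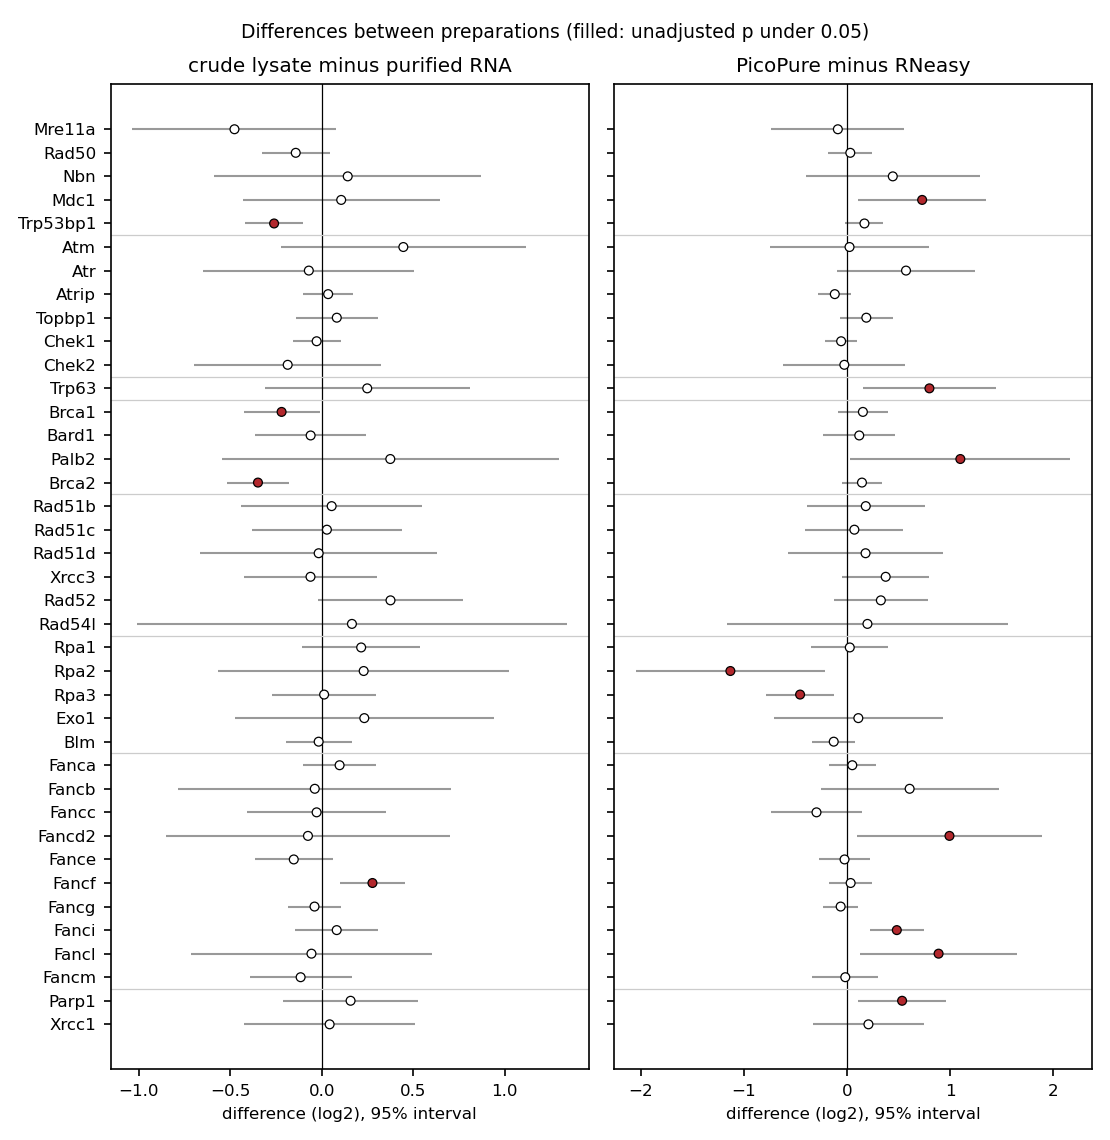
Differences (x axis, log2) of the 39 genes (y axis) between crude lysate and purified RNA (left) and between both kits (right), with 95% intervals from limma as bars and filled points where the unadjusted p was under 0.05. On the left 20 differences are positive and 19 negative (31 positive after a further quantile normalization, not drawn), and 28 of 39 are positive on the right, where no adjusted p was below 0.325.

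Between the kits, 0 of 39 members passed (limma, adjusted p), against 12 of 19938 genes, or 0.0602%, and again 0 with a variance trend and robust moderation. At an unadjusted p under 0.05 there were 9 of 39, or 23.1%, against 7.98% of all genes. Of these 9, 7 were higher with PicoPure. Palb2 differed by 1.10 ± 0.46 (SE), Fancd2 by 0.99 ± 0.39 (SE) and Fancl by 0.89 ± 0.33 (SE). Trp63 averaged 9.07 ± 0.62 (SD, n = 3) with RNeasyMini against 9.87 ± 0.20 (SD, n = 3) with PicoPure, a difference of 0.80 ± 0.28 (SE) with an adjusted p of 0.536 (limma). Mdc1 differed by 0.73 ± 0.27 (SE), Parp1 by 0.53 ± 0.18 (SE) and Fanci by 0.48 ± 0.11 (SE), the last with the smallest adjusted p of the set (0.325, limma). Both genes lower with PicoPure encode subunits of replication protein A, Rpa2 at -1.13 ± 0.40 (SE) and Rpa3 at -0.45 ± 0.14 (SE), while Rpa1 had a difference of 0.03 ± 0.16 (SE). Of the 39 genes 8 had all PicoPure values above all RNeasyMini values, against 6.92% of all genes, and Rpa3 alone had them all below, against 7.03%. The 8 were Mdc1, Trp53bp1, Atr, Topbp1, Brca1, Brca2, Fanci and Fancl. The median difference was 0.15, and 28 of 39 (71.8%) were positive, against -0.03 and 41.5% over all genes. Among genes above background on at least 3 arrays the positive shares lay closer, at 27 of 37 members (73.0%) and 52.1%. After a further quantile normalization they were 27 of 39 (69.2%) and 48.0%. The 95% interval lay within 1 log2 unit on either side of 0 for 29 of 39 (74.4%, against 86.6% of all genes). Fancl had 0.54 without PicoPure replicate 3, and Mdc1 and Parp1 had 0.42 and 0.34 without RNeasyMini replicate 1.

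RNeasyMini replicate 3, the highest array for 12 of 18 cumulus markers, most of them below background on it, also stood apart for these genes. It held the lowest of the 9 values for 14 of 39 (35.9%), against 9.19% of all genes, a count made after the values were seen. Among the genes above background on all arrays the shares were 11 of 31 (35.5%) and 13.9%. The 14 were Nbn, Atr, Trp63, Bard1, Palb2, Rad51c, Rad51d, Rad52, Rad54l, Rpa1, Exo1, Fancb, Fancf and Fanci. This array also had the highest background level (7.48) and the fewest genes above it, 9661 against 10091 to 11443 elsewhere, and the part of these and of the cumulus markers (12 of 18 highest here) in the result was not tested. Without it, 24 of 39 members were higher with PicoPure (61.5%, against 46.5% of all genes), the median difference was 0.06, and 5 members had an unadjusted p under 0.05 (against 5.96% of all genes). The fall to 5 was not particular to this array. The count was 5 or 8 without RNeasyMini replicate 1 or 2, and 5, 6 or 4 without PicoPure replicate 1, 2 or 3. In those fits the median difference was 0.10 to 0.17. Without RNeasyMini replicate 3 the difference of Palb2 went to 0.51, of Trp63 to 0.51 and of Rpa2 to -0.81. For Fancl it was 0.94, for Mdc1 0.87, for Fancd2 0.83, for Parp1 0.53, for Fanci 0.44 and for Rpa3 -0.53.

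**Figure D3:**
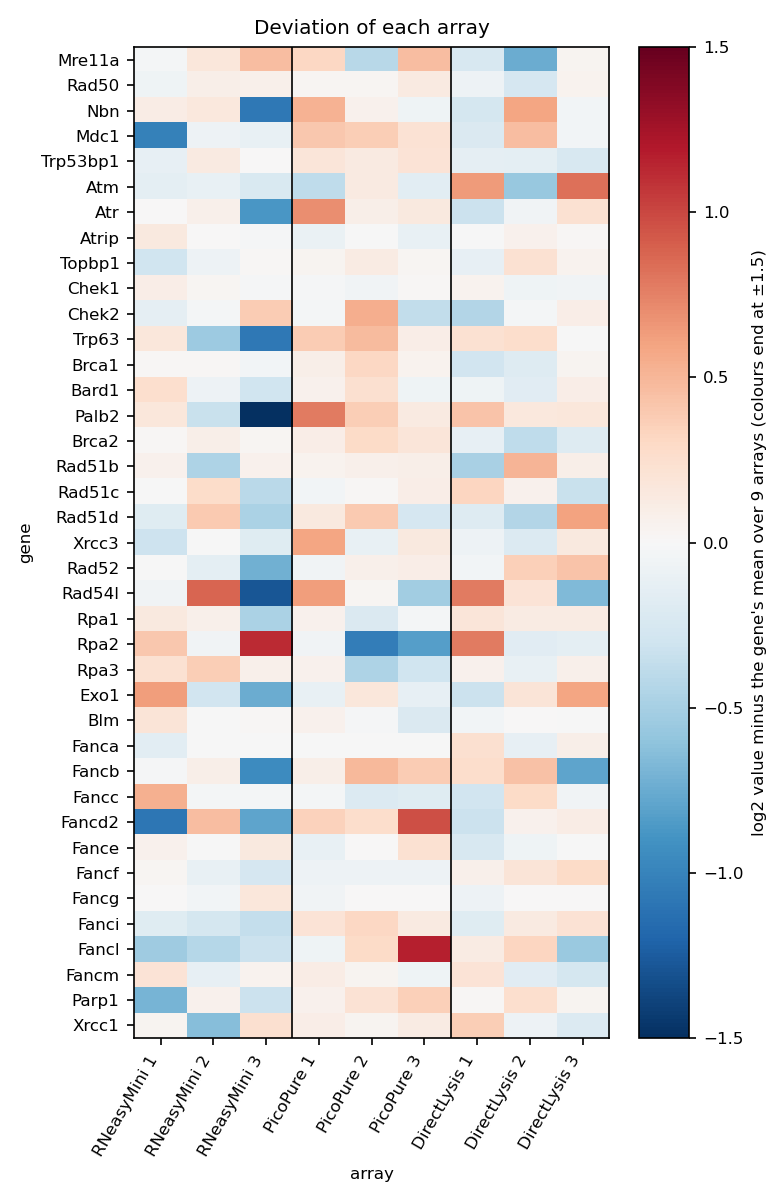
Deviation of each array (x axis) from the mean of the 9 arrays for each of the 39 genes (y axis), in log2 units, with blue below and red above the mean and colours ending at 1.5 on either side. The column of RNeasyMini replicate 3 holds the lowest value of 14 genes, and the rows of Chek1 and Fancg are nearly white.

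Set against each kit in turn, crude lysate again gave 0 of 39 members past the threshold (limma), both against RNeasyMini (87 genes in all, 0.436%) and against PicoPure (119 genes, 0.597%). At an unadjusted p under 0.05 there were 5 of 39 (against 13.4% of all genes) and 4 of 39 (against 12.3%). These comparisons share the lysates. Brca2 differed by -0.28 ± 0.09 (SE) against RNeasyMini and -0.42 ± 0.09 (SE) against PicoPure, and Trp63 by 0.65 ± 0.28 (SE) and -0.15 ± 0.28 (SE). The moderated F test over the 3 preparations called 0 of 39, against 127 genes (0.637%), with 7 of 39 at an unadjusted p under 0.05 (17.9%, against 12.8% of all genes).

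Single oocytes differed more in some of these messages than in others. The pooled within-preparation SD had a median of 0.26 log2 units over the 39 genes and 0.15 over all genes, and was 0.26 over the 39 genes without RNeasyMini replicate 3. Among genes above background on all arrays the medians were 0.25 and 0.19. By preparation the median SD of the 39 genes was 0.27 with RNeasyMini, 0.14 with PicoPure and 0.21 in crude lysate, against 0.13, 0.11 and 0.15 over all genes. The widest were Rad54l at 0.82, Palb2 at 0.64, Rpa2 at 0.55 and Fancd2 at 0.54. The narrowest were Chek1 at 0.06, Atrip at 0.06, Fancg at 0.07 and Trp53bp1 at 0.08. Atrip and Fancg are narrow near background, and Chek1 is narrow far above it. A small spread at such a level was not particular to Chek1. Oocyte markers with means from 12.11 (Nobox) to 12.86 (Bmp15) had SDs from 0.03 (Bmp15) to 0.15 (Nobox). Of the 31 members above background on all arrays, 14 spanned at least 1 log2 unit between their lowest and highest oocyte (45.2%, against 33.2% of genes above background). This span runs over all preparations, so differences between them are part of it. Biological differences between oocytes and noise of amplification from 1 cell cannot be told apart here.

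**Figure D4:**
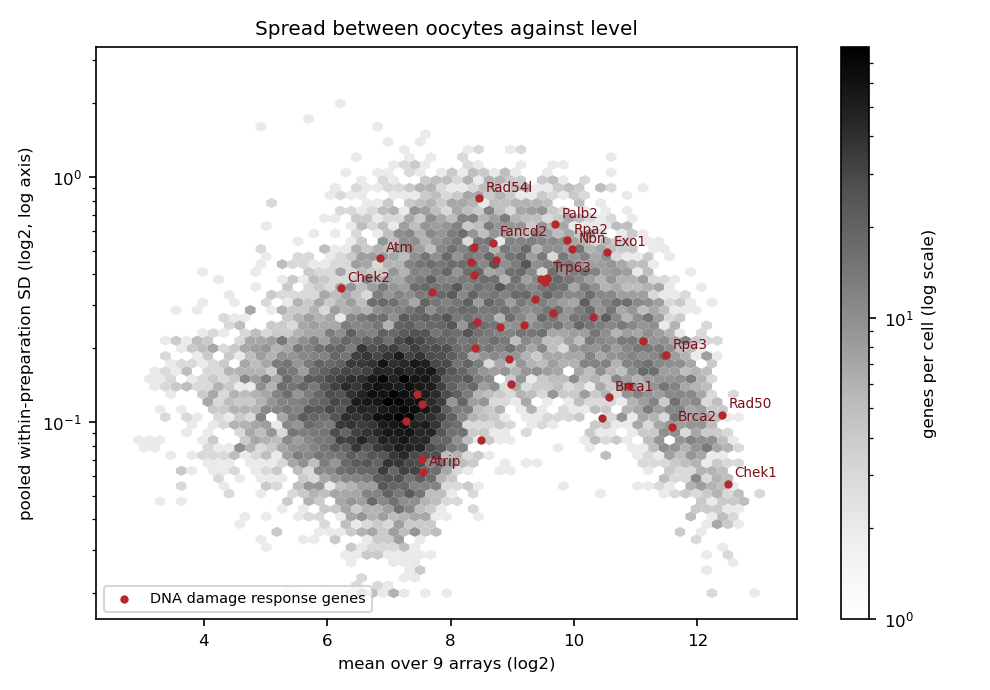
Pooled within-preparation SD (y axis, log2 units on a log axis, values under 0.02 drawn at 0.02) against the mean over 9 arrays (x axis, log2) for all 19938 genes in grey, shaded by the number of genes per cell, and for the 39 genes in red. Chek1 lies at the bottom right (SD 0.06), and Rad54l (0.82) and Palb2 (0.64) lie at the top.

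Other repair genes were read from 5 lists with 113 symbols, of which 99 had a row and 75 lay above background on all arrays. The lists were chosen with earlier results of these data known, so the shares that follow only describe them. Between crude lysate and purified RNA 3 of the 99 fell (against 0.667% of all genes) and 0 rose (against 0.341%; limma, adjusted p), and between the kits 0 changed. Wrn, a helicase of the same family as Blm, had 10.10, 10.09 and 10.10 with RNeasyMini, 10.89, 10.64 and 10.47 with PicoPure and 9.34, 9.50 and 8.45 in crude lysate, a difference of -1.29 ± 0.22 (SE) with an adjusted p of 0.0457 (limma). All lysates lay below all purified samples. Fignl1, an ATPase of homologous recombination, had 10.73, 10.99 and 11.13 with RNeasyMini, 10.86, 10.81 and 10.97 with PicoPure and 10.43, 9.96 and 10.12 in crude lysate, a difference of -0.75 ± 0.12 (SE) with an adjusted p of 0.04 (limma). Rrm2b, the p53-induced subunit of ribonucleotide reductase, had 11.43, 11.67 and 11.53 with RNeasyMini, 11.56, 11.48 and 11.72 with PicoPure and 10.55, 10.30 and 10.94 in crude lysate, a difference of -0.97 ± 0.14 (SE) with an adjusted p of 0.0251 (limma). The 3 calls were lost in 10, 10 and 9 of 16 alternatives, among them the replicate block and the omission of any single purified array, with a highest adjusted p of 0.113, 0.111 and 0.0735 (limma).

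By list, 2 of 26 other homologous recombination genes were lower in crude lysate (median difference 0.03), with Dna2, a resection nuclease, next by p at 0.64 between the kits. Of 18 p53 regulators and targets 1 was lower (median -0.04). Mdm2, the p53 ubiquitin ligase, had -1.02 ± 0.23 (SE) and Btg2 -0.69 ± 0.17 (SE), neither past the threshold. None of 13 end-joining genes passed (median -0.08), where Rev3l had -0.63 ± 0.12 (SE) with an adjusted p of 0.0583 (limma), Lig3 0.35 between the kits and Polq 0.34 in crude lysate. None of 19 checkpoint clamp and chromatin signalling genes did (median -0.11), with Smc1a at -0.36 in crude lysate and Timeless and Clspn at 0.75 and 0.40 between the kits. None of 23 excision and mismatch repair genes did (median 0.06), with Lig1 at 0.34 in crude lysate and Ercc3 and Parp2 at 0.78 and 0.60 between the kits. The medians between the kits were 0.08 for homologous recombination, -0.01 for p53 targets, 0.20 for end joining, 0.04 for the checkpoint list and 0.04 for excision repair.

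Promoter letters were counted as a description. RefSeq promoters of 300 bases were at hand for 33 of the 39 genes. Their median GC content, with Trp53 and repeated starts included, was 59.7% over 37 promoters, against 52.7% over 32851, and the median number of CpG pairs was 22 against 7. An E2F match occurred for 7 of 33 genes (21.2%), against 2.60% of all genes with a promoter. The 7 were Bard1, Brca2, Chek2, Fancg, Mdc1, Rad51c and Topbp1. With the words ending in G added, the count was 10 of 33 (30.3%, against 5.14%), the additions being Chek1, Rad51b and Rpa1. Those words were added after the sequences were seen, so this share is not an independent count. A CCAAT box occurred for 21 of 33 (63.6%, against 41.1%). The cell cycle homology element TTTGAA occurred for 2 of 33 (6.06%, against 20.2%), and the palindromic NRF1 site for 0 of 33 (against 1.07%). All motifs were searched on both strands, and matches were allowed to overlap. These matches are letters in a window, and the part of base composition in the shares was not tested.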

How the data were processed

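Single-oocyte RNA was measured on 9 arrays in 3 groups of 3, taken from the sample titles. The authors' deposited table holds log2 expression values, 35556 rows with 0 missing values. The submitters' processing notes name GCOS, Affymetrix Expression Console and GCRMA and give neither versions nor an order. The log2 scale was read from the values (array medians 7.12 to 7.24). Scanner files were not used here, so background correction could not be repeated, and the build was not given in the sources used here. The number of arrays limits the precision.

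Rows with 1 symbol in the platform's probe table (21789 rows, with 1621 of several and 12146 of none) gave 19938 genes. Of these rows, 21698 matched RefSeq (GRCm38.p6) and 0 symbols changed. Differences were tested in 1 fit over all arrays with limma 3.58.1 in R 4.3.3 (lmFit, eBayes), two-sided and without a filter, and p-values were adjusted over all genes (Benjamini-Hochberg, threshold 0.05). The fit was tested on simulated data. Crude lysate was set against the mean of both kits.

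The members and lists were chosen with earlier results of these data known. Genes were given per array by a rule: a fixed panel, the 6 smallest p in each comparison, the 4 widest spreads, and members on 1 to 8 arrays within 0.3 of background. Some symbols of the lists had no row and are not reported here.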

Additional observations from a re-analysis of the deposited data

How the results depend on the processing

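Over 16 alternatives the members called stayed at 0 of 39 between the kits and over the 3 preparations, and between crude lysate and purified RNA they were 0 or 1, the 1 being Atm without DirectLysis replicate 2 (0.88). The count over all genes was far less stable. Leaving out 1 array gave 24 to 232 genes between crude lysate and purified RNA, 0 to 15 between the kits and 4 to 96 over the preparations. The first count fell to 24, 67 or 111 when RNeasyMini replicate 1, 2 or 3 was left out, and to 61, 43 or 116 for PicoPure replicate 1, 2 or 3. With the replicate number as a block, the counts were 25, 0 and 14. Same-numbered oocytes did not deviate together (correlations across genes of -0.09 to 0.13 over 9 pairs, 1 of them over 0.1), so the number is not taken as a pairing. With a variance trend and robust moderation the kits gave 0 genes, and with a further quantile normalization the preparations gave 81. Restricting the table to genes above background on at least 3 arrays kept 37 members and moved their median level to 9.20. The difference of Chek1 in crude lysate turned from -0.03 to 0.0025 with quantile normalization, where 31 of 39 members were positive in place of 20 (53.6% of all genes). Raising values to background moved the median of all genes between the kits from -0.03 to -0.15, with 26 of 39 members positive (28.1% of all genes). Each array was raised to its own background, which was 7.27 to 7.48 with RNeasyMini and 7.19 to 7.26 with PicoPure. Genes at the floor carry this difference, so the members are not compared with that share of all genes. With the 90th or 99th percentile of the receptors as background, 36 or 22 members lay above it on all arrays. Differences of rows near background are not read as changes of a message.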
